A study of Mus musculus with 8 samples.

Results

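The genes described here are 34 genes of glucose transport, glycolysis, lactate handling and the response to low oxygen. They were chosen by name and not by a rule on their values, but with earlier results of these data known. All 34 of them were found among the 27998 gene rows of both count tables. For reading, they were ordered by role into 4 genes of glucose and lactate transport, 18 glycolytic enzymes, 11 hypoxia-induced genes and 1 regulator, Hif1a. The levels compared are those of 1 single-cell RNA library labelled Tet triple knockout (TKO) and 1 labelled wild type (WT). The other 6 of the 8 samples enrich 5-hydroxymethylcytosine in wild-type DNA and were not analysed here.

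Both libraries came from day 5 of differentiation of mouse embryonic stem cells. The line is E14-NKX2-5-EmGFP, which carries a green fluorescent reporter for the cardiac factor Nkx2-5, and neither library had a drug treatment. Stem cells were grown on embryonic fibroblast feeders arrested with mitomycin C. They then formed embryoid bodies without leukemia inhibitory factor, first in hanging drops for 2 days and then floating in non-adhesive dishes for 3 days. The labels do not say which part of each Tet gene was deleted, how many clones were used or whether feeder cells were carried over. The study asks how the loss of TET proteins, the enzymes that oxidise 5-methylcytosine, alters differentiation toward heart cells.

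Glycolysis turns glucose into pyruvate in the cytosol, and lactate dehydrogenase can turn that pyruvate into lactate for export. When oxygen is low, prolyl hydroxylases no longer mark the transcription factor HIF1A for destruction, and HIF1A with its partner ARNT binds short DNA elements near genes of glucose uptake, glycolysis, lactate export, mitochondrial removal and collagen folding. Pluripotent stem cells and early post-implantation mouse embryos are known for high glycolysis.

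After filters the TKO-labelled library held 3196 cells and 33483998 UMIs (unique molecular identifiers, 1 per counted RNA molecule), and the WT-labelled library held 4389 cells and 37503810 UMIs. Median UMIs per cell were 9678 in TKO-labelled and 7847 in WT-labelled cells. A level is given as CPM, the UMIs of a gene per 1000000 UMIs of the library or of a set of cells, and levels are compared for the same gene only. Brackets after a level or a ratio hold exact 95% intervals, which cover counting error only. With 1 library per group no difference has a replicate check, so no p-value is given, and a gene is called higher or lower where its TKO over WT ratio, with a prior count of 0.5 added to each side, passes 1.5-fold. A summed level cannot tell fewer cells of a kind from less RNA per cell. The Tet genes do not check the labels, because the deleted parts are not given: Tet1 stood at 22.8 CPM in the TKO-labelled and 12.3 CPM in the WT-labelled library, Tet2 at 4.60 and 6.83 CPM, and Tet3 at 20.3 and 29.1 CPM in the same order of libraries.

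Of the 11 hypoxia-induced genes 7 were called lower in the TKO-labelled library, and of the 18 glycolytic enzyme genes 5. The hypoxia-induced genes summed to 393 CPM in the TKO-labelled and 510 CPM in the WT-labelled library, a ratio of 0.770 (0.753 to 0.787), which is within 1.5-fold. Of all 34 genes, 5 were called higher and 13 lower, and 16 lay between. Among all 12768 genes with at least 50 UMIs over both libraries, 20.5% were called higher and 15.6% lower. The 5 higher genes were Slc16a1, Slc2a3, Ldhb, Eno1 and Ddit4. The median log2 ratio was −0.17 over the 34 genes, all of which had 50 UMIs, against 0.13 over all genes tested. That shift of all genes was 0.006 under edgeR's TMM scaling and near 0 under DESeq2's size factors, so ratios near 1 carry no direction.

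**Figure D1:**
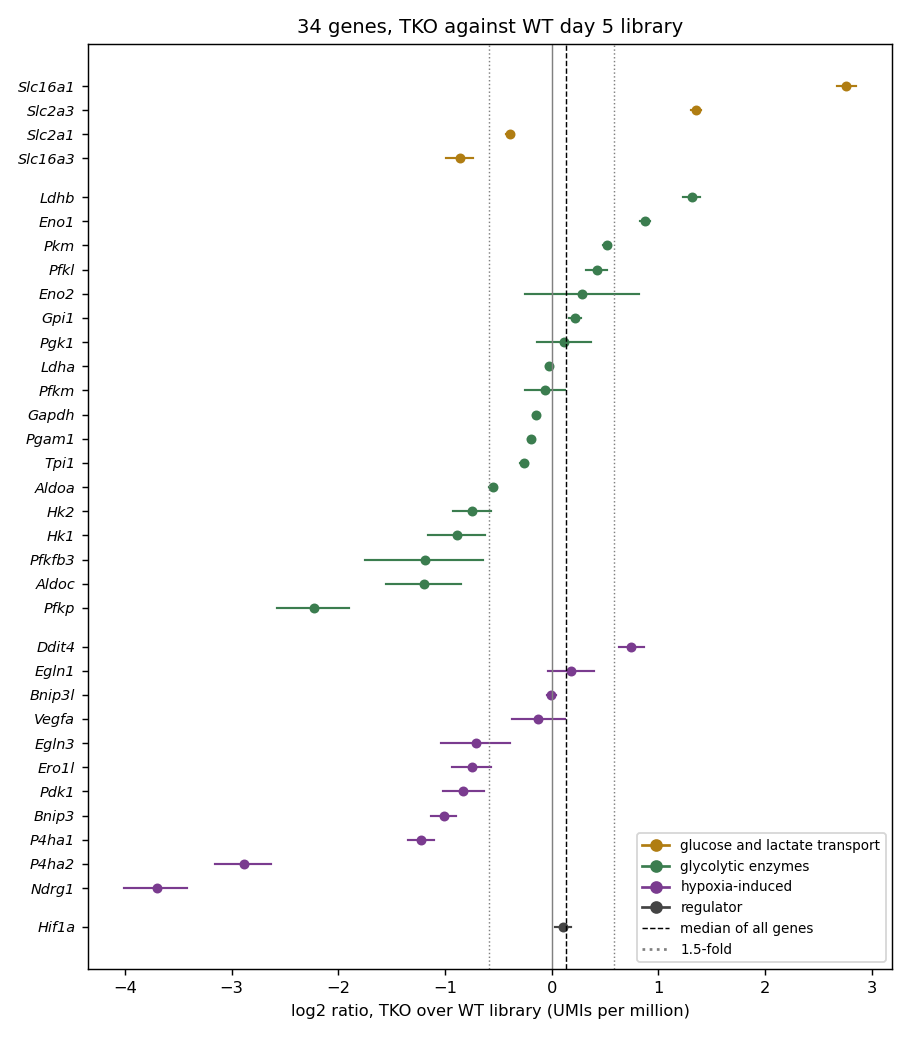
The TKO over WT ratio of each of the 34 genes on a log2 axis, from summed UMIs of 1 library each, with bars for exact 95% counting intervals and genes ordered by role. Slc16a1 lies farthest to the right at 6.78, and Ndrg1 farthest to the left at 0.0768.

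The transporters differed in both directions. Slc16a1, the monocarboxylate transporter MCT1 that moves lactate and pyruvate in or out of cells, had 213 CPM (208 to 218) in the TKO-labelled and 31.4 CPM (29.6 to 33.2) in the WT-labelled library, a ratio of 6.78 (6.37 to 7.22). Slc16a3, the transporter MCT4 that exports lactate from strongly glycolytic cells, had 22.1 CPM (20.5 to 23.8) in TKO-labelled and 40.2 CPM (38.2 to 42.3) in WT-labelled cells, a ratio of 0.550 (0.503 to 0.601). These lactate carriers thus differed in opposite directions. Slc16a1 made up 90.6% of their joint UMIs in the TKO-labelled library and 43.8% in the WT-labelled library. Slc2a3, the high-affinity glucose transporter GLUT3, had 360 CPM (353 to 366) in TKO-labelled and 140 CPM (137 to 144) in WT-labelled cells, a ratio of 2.56 (2.48 to 2.64). Slc2a1, the basal glucose transporter GLUT1, had 389 CPM (382 to 395) in TKO-labelled and 511 CPM (504 to 519) in WT-labelled cells, a ratio of 0.760 (0.743 to 0.777), which did not pass 1.5-fold. Slc2a3 made up 48.1% of the joint UMIs of both glucose transporters in the TKO-labelled and 21.6% in the WT-labelled library.

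The 18 glycolytic enzyme genes summed to 3637 CPM in the TKO-labelled and 3664 CPM in the WT-labelled library, a ratio of 0.993 (0.985 to 1.00). Of these 18 genes, 2 were called higher and 5 lower, with a median log2 ratio of −0.10. The 2 higher genes act late in the pathway. Eno1, the enolase that makes phosphoenolpyruvate, had 271 CPM in TKO-labelled and 148 CPM in WT-labelled cells, a ratio of 1.83 (1.77 to 1.90). Ldhb, the lactate dehydrogenase subunit that favours making pyruvate from lactate, had 134 CPM in TKO-labelled and 53.9 CPM in WT-labelled cells, a ratio of 2.48 (2.35 to 2.62). Ldha, the subunit that favours making lactate, had 642 CPM in TKO-labelled and 654 CPM in WT-labelled cells, a ratio of 0.981 (0.963 to 0.999). Ldhb therefore took a larger share of the joint Ldhb and Ldha UMIs in the TKO-labelled library, 17.2%, against 7.61% in the WT-labelled library. Pkm, pyruvate kinase, came close to the threshold with 527 CPM in TKO-labelled and 368 CPM in WT-labelled cells, a ratio of 1.43 (1.40 to 1.46).

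The 5 lower enzyme genes act at the entry and the control points of the pathway or code for a minor aldolase. Pfkp, the platelet-type phosphofructokinase, had 2.66 CPM (2.13 to 3.27) in TKO-labelled and 12.5 CPM (11.3 to 13.6) in WT-labelled cells, a ratio of 0.213 (0.168 to 0.268). Pfkl, the liver-type subunit of the same enzyme, had 55.7 CPM in TKO-labelled and 41.6 CPM in WT-labelled cells, a ratio of 1.34 (1.25 to 1.43). Pfkm, the muscle-type subunit, had a ratio of 0.957 (0.840 to 1.09). Only Pfkp of these 3 phosphofructokinase subunits passed 1.5-fold, and Pfkl took 95.4% of the joint Pfkl and Pfkp UMIs in the TKO-labelled and 77.0% in the WT-labelled library. Hk1 and Hk2, hexokinases that trap glucose as its phosphate, had ratios of 0.539 (0.448 to 0.646) and 0.596 (0.526 to 0.674). Hk2 stood at 11.7 CPM in TKO-labelled and 19.7 CPM in WT-labelled cells. Pfkfb3, which makes the activator of phosphofructokinase, was scarce, with 40 UMIs in the TKO-labelled and 102 in the WT-labelled library and a ratio of 0.439 (0.297 to 0.639). Aldoc, the brain-type aldolase, was scarce too, with 96 UMIs in the TKO-labelled and 246 in the WT-labelled library and a ratio of 0.437 (0.342 to 0.556).

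Most abundant enzymes of the middle of the pathway stayed within 1.5-fold. Aldoa, the main aldolase, had 397 CPM in TKO-labelled and 583 CPM in WT-labelled cells, a ratio of 0.682 (0.667 to 0.697). It sat just inside the threshold and was called lower under TMM scaling and DESeq2's size factors. Tpi1, Gapdh, Pgam1 and Gpi1, which code for triosephosphate isomerase, glyceraldehyde phosphate dehydrogenase, phosphoglycerate mutase and glucose phosphate isomerase, had ratios between 0.836 and 1.16. Eno2, the neuronal enolase, had 64 UMIs in the TKO-labelled and 59 in the WT-labelled library. Pgk1, phosphoglycerate kinase, was listed at 7.65 CPM in TKO-labelled and 7.07 CPM in WT-labelled cells, a ratio of 1.08 (0.908 to 1.29). Several of these enzymes have processed copies elsewhere in the mouse genome, and a separate row, Eno1b, held 163 UMIs in the TKO-labelled and 148 in the WT-labelled library, so the split of reads between such copies is uncertain for Gapdh, Pgk1, Eno1, Aldoa, Tpi1, Pgam1, Ldha and Pkm.

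The hypoxia-induced genes held the lowest ratios, with 7 of 11 called lower and 1 higher. Their median log2 ratio, TKO over WT, was −0.75. Ndrg1, a stress gene known for its strong induction by hypoxia, had 103 UMIs in the TKO-labelled and 1503 in the WT-labelled library. Its level was 3.08 CPM (2.51 to 3.73) in TKO-labelled and 40.1 CPM (38.1 to 42.2) in WT-labelled cells, a ratio of 0.0768 (0.0622 to 0.0938). Both collagen prolyl hydroxylase subunits, which help collagen fold, were lower. P4ha2 had 3.97 CPM (3.33 to 4.71) in TKO-labelled and 29.4 CPM (27.7 to 31.2) in WT-labelled cells, a ratio of 0.135 (0.112 to 0.162). P4ha1 had 21.5 CPM (19.9 to 23.1) in TKO-labelled and 50.2 CPM (48.0 to 52.5) in WT-labelled cells, a ratio of 0.428 (0.392 to 0.466). The share of P4ha2 in the joint UMIs of this pair was 15.6% in the TKO-labelled and 37.0% in the WT-labelled library.

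The other lower genes serve several arms of the response. Bnip3, which marks mitochondria for removal, had 25.5 CPM in TKO-labelled and 51.4 CPM in WT-labelled cells, a ratio of 0.496 (0.457 to 0.538). Its relative Bnip3l, which clears mitochondria during red cell maturation, had 251 CPM in TKO-labelled and 252 CPM in WT-labelled cells, a ratio of 0.996 (0.967 to 1.03). These relatives thus parted, with Bnip3 past 1.5-fold and Bnip3l at nearly the same level in both libraries. Pdk1, a kinase that inhibits pyruvate dehydrogenase, had a ratio of 0.563 (0.493 to 0.643), and Ero1l, an oxidase of the endoplasmic reticulum, a ratio of 0.594 (0.522 to 0.674). Egln3, an oxygen-sensing prolyl hydroxylase that HIF induces, had 3.79 CPM in TKO-labelled and 6.21 CPM in WT-labelled cells, a ratio of 0.611 (0.488 to 0.761). It did not pass 1.5-fold when cells were thinned to 4000 UMIs or when the 5% of cells with most UMIs were removed. Egln1, the main oxygen sensor, had a ratio of 1.14 (0.978 to 1.32), and Vegfa, the growth factor for blood vessels, a ratio of 0.917 (0.773 to 1.09).

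Ddit4, an inhibitor of mTORC1 that both hypoxia and other stresses induce, was the 1 hypoxia-induced gene called higher, with 44.1 CPM (41.9 to 46.4) in TKO-labelled and 26.3 CPM (24.7 to 28.0) in WT-labelled cells, a ratio of 1.68 (1.54 to 1.82). Hif1a, the oxygen-regulated subunit itself, had 78.9 CPM in TKO-labelled and 73.4 CPM in WT-labelled cells, a ratio of 1.08 (1.02 to 1.13). HIF1A is controlled mainly through the stability of the protein, which RNA counts do not measure. Markers of cell kinds moved with these differences. The 11 mesenchyme markers summed to 25.4 CPM in the TKO-labelled and 1987 CPM in the WT-labelled library, and all 11 were detected in both. The 12 erythroid markers summed to 20.6 CPM in the TKO-labelled and 297 CPM in the WT-labelled library, and the 13 definitive endoderm markers to 2260 CPM in the TKO-labelled and 1201 CPM in the WT-labelled library. Their part in the differences was not tested over all cells, and levels within marker-defined sets of cells are given after the promoter sequences.

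HIF binds a core of 5 letters, and the stretches before the transcription starts were searched for it because 7 of the 11 hypoxia-induced genes were called lower. The motifs were ACGTG and GCGTG on either strand, which read CACGT and CACGC on the strand printed, and matches may overlap, as both strands of CACGTG do. The window was the 250 bases before the first listed start in RefSeq on GRCm38.p6, the assembly that mm10 names. Of the 34 genes, 30 had an entry, and Slc2a3, Ndrg1, Bnip3l and Ero1l had none. At least 1 match was present in 23 of 30 genes (76.7%), against 57.9% of 9620 genes with 50 UMIs and 38.6% of 27025 genes in all. The share was 10 of 11 among genes called lower, 4 of 4 among genes called higher and 9 of 15 among the others, so the letters did not separate higher from lower genes. CpG dinucleotides per window had a median of 15 in the 30 genes and 16 in the genes with 50 UMIs. A match describes the letters only and is not a bound site. The windows of 3 genes called lower are printed first, then those of 2 genes called higher, 5′ to 3′ on the strand of the gene, with matches in capitals.
Bnip3, chr7:138909507-138909756, minus strand: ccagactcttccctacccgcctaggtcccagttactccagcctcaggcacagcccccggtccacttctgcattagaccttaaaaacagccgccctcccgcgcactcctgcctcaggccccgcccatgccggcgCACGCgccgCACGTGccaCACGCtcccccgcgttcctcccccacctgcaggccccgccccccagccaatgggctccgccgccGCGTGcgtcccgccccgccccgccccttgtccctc
P4ha1, chr10:59323046-59323295, plus strand: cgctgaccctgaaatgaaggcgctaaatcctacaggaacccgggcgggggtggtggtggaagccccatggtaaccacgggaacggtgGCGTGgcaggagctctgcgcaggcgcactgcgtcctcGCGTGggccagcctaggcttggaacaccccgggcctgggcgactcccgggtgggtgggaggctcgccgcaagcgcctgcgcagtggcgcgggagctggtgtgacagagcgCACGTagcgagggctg
P4ha2, chr11:54100674-54100923, plus strand: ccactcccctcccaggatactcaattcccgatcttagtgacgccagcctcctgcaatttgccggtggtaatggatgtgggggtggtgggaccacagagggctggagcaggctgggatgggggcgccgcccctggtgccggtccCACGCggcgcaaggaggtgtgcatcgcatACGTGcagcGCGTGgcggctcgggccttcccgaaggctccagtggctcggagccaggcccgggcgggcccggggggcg
The windows of P4ha1 and P4ha2 each held 3 matches and that of Bnip3 held 5. Of the genes called higher, Slc16a1 had 4 matches, and Ldhb had 1.
Slc16a1, chr3:104638414-104638663, plus strand: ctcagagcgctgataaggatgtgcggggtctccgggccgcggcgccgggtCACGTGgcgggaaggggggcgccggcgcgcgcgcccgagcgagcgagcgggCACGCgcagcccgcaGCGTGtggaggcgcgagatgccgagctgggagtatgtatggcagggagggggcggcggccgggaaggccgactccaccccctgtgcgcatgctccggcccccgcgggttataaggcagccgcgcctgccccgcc
Ldhb, chr6:142507958-142508207, minus strand: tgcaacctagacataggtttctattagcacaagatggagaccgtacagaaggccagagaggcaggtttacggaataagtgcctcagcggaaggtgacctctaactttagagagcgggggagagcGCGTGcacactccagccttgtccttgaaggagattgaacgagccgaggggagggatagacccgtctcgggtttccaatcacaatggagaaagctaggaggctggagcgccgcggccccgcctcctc
Slc16a1 and Bnip3 each hold CACGTG, the palindrome that counts once on each strand. Vegfa, Aldoa, Pkm, Tpi1, Gpi1, Hk1 and Eno2 had no match in this window, which says nothing of sites elsewhere.

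Levels of these genes differed widely between kinds of cells, which were set by marker gates. A cell entered a kind when it held UMIs of a minimum number of that kind's markers, from 2 to 5 by kind. It also had to pass no competing gate. Lateral and head mesoderm did not compete with the other kinds and took only cells that passed no other gate. Cells of the other kinds may thus pass a mesoderm gate too: 3518 WT-labelled cells were over the lateral mesoderm minimum, and 316 entered that kind. No gene of the 34 is a marker. The gates held different kinds in the libraries. In the TKO-labelled library the largest were definitive endoderm with 966 cells, head mesoderm with 783 and pluripotent with 270, followed by lateral mesoderm with 180 and cardiomyocyte with 132. In the WT-labelled library they were fibroblast or mesenchyme, below called mesenchyme, with 2890 cells, erythroid with 413, lateral mesoderm with 316 and endothelial with 162. Cells that passed several competing gates, or both mesoderm gates and no other, numbered 611 in the TKO-labelled and 426 in the WT-labelled library. Many cells lie at a cut, for example 138 of 1197 TKO-labelled cells over the definitive endoderm minimum hold just that minimum, and 186 lie 1 marker below it. Definitive endoderm-gated TKO-labelled cells held 76.5 CPM of Sox17, 61.4 CPM of Foxa2 and 1408 CPM of Trh, and 6.13 CPM of Cer1, all markers of that kind.

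**Figure D2:**
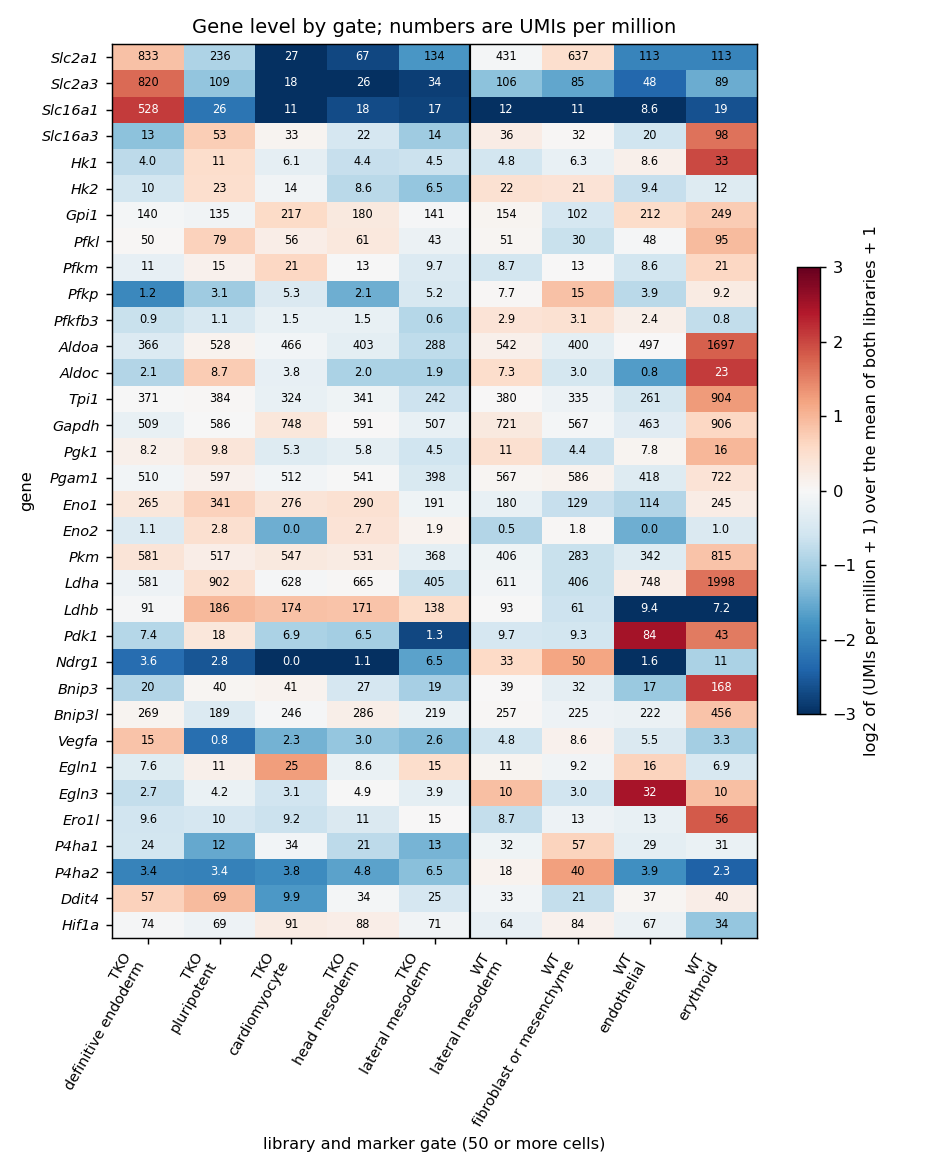
Levels of the genes in CPM by marker-gated kind, as a grid of 34 genes by 9 sets of at least 50 cells, TKO-labelled sets on the left, with colour for the log2 ratio to the mean of both libraries after adding 1 CPM. Slc2a1, Slc2a3 and Slc16a1 are high in definitive endoderm-gated TKO-labelled cells, and Ldha and Aldoa in erythroid-gated WT-labelled cells.

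In the TKO-labelled library 3 transporters were concentrated in definitive endoderm-gated cells. Slc2a1 stood at 833 CPM (816 to 851) there, against 236 CPM in pluripotent-gated, 134 CPM in lateral mesoderm-gated, 66.5 CPM in head mesoderm-gated and 27.5 CPM (19.2 to 38.0) in cardiomyocyte-gated cells. Slc2a3 had 820 CPM (803 to 837) in definitive endoderm-gated and 17.6 CPM (11.1 to 26.3) in cardiomyocyte-gated cells, and Slc16a1 had 528 CPM (514 to 542) and 11.4 CPM (6.41 to 18.9) in the same kinds. The part of free RNA in the lowest of these levels was not tested. In the WT-labelled library definitive endoderm-gated cells, only 31 in number, had 765 CPM (658 to 885) for Slc2a1, 824 CPM (713 to 948) for Slc2a3 and 252 CPM (193 to 325) for Slc16a1. All 3 genes were thus high in this kind in both libraries, but not in this kind alone. The 20 visceral endoderm-gated WT-labelled cells held 117969 UMIs, among them 155 of both glucose transporters, 98 of these of Slc2a3, and 36 of Slc16a1. The definitive endoderm-gated WT-labelled cells held 237843 UMIs, with 378, 196 and 60 in the same order. Of 1176 Slc16a1 UMIs in the WT-labelled library, 694 lay in cells that entered no kind because they passed several gates. Mesenchyme-gated WT-labelled cells shared a high Slc2a1, with 637 CPM (627 to 647), but had 84.8 CPM for Slc2a3 and 10.7 CPM for Slc16a1.

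The same transporters were followed along a count of endoderm markers per cell, a view chosen after seeing the data, with every cell thinned to 4000 UMIs. In TKO-labelled cells with none of the 13 markers Slc16a1 stood at 18.4 CPM (13.5 to 24.4), and in those with 6 or more at 664 CPM (634 to 696). In WT-labelled cells the same bins had 12.9 CPM (8.41 to 18.9) and 396 CPM (337 to 462). At 3 markers Slc16a1 had 95.4 CPM (72.4 to 123) in TKO-labelled and 61.3 CPM (39.7 to 90.5) in WT-labelled cells, and at 4 or 5 markers 346 CPM in TKO-labelled and 342 CPM in WT-labelled cells. Cells rich in these markers differ between the libraries in others: over the minimum of 5, the 12 visceral endoderm markers summed to 576 CPM in TKO-labelled and 14935 CPM in WT-labelled cells, and their part in the comparison of bins was not tested. Slc2a3 in the bin with 6 or more was at 955 CPM (919 to 993) in TKO-labelled and 1299.5 CPM (1191 to 1416) in WT-labelled cells. Slc2a3 was higher beyond counting error in TKO-labelled cells in none of the 6 bins, although it was higher over the whole library. Slc2a1 differed most in the bins with few markers: at 2 markers it had 172 CPM (153 to 192) in 438 TKO-labelled cells and 633 CPM (616 to 649) in 2225 WT-labelled cells. The markers held in that bin need not be of endoderm: mesenchyme-gated WT-labelled cells hold 714 CPM of Krt8 and 548 CPM of Krt18, keratins on the list, but 1.38 CPM of Epcam and 0.448 CPM of Sox17. Ldhb ran the other way in TKO-labelled cells, with 161 CPM at no marker and 94.2 CPM at 6 or more.

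**Figure D3:**
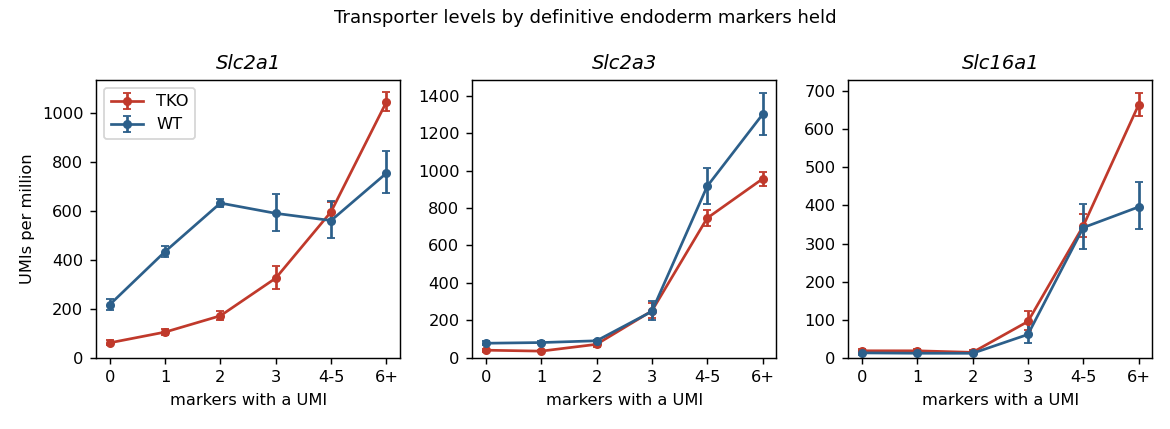
Levels in CPM of Slc2a1, Slc2a3 and Slc16a1 in cells thinned to 4000 UMIs, by the number of definitive endoderm markers with a UMI, for TKO-labelled (red) and WT-labelled (blue) cells, with bars for exact 95% counting intervals. All 3 genes are higher at 6 or more markers than at none in both libraries, and Slc2a1 at 2 markers has 172 CPM in TKO-labelled and 633 CPM in WT-labelled cells.

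Many glycolytic enzyme genes and some hypoxia-induced genes were high in erythroid-gated WT-labelled cells, of which there were 413, while others were low there. Ldha reached 1998 CPM (1954 to 2043) there, against 406 CPM in mesenchyme-gated WT-labelled cells. Aldoa reached 1697 CPM (1656 to 1738) against 400 CPM, and Bnip3 168 CPM (155 to 181) against 32.0 CPM in the same kinds. Tpi1, Pkm, Slc16a3, Ero1l and Bnip3l were also higher in the erythroid gate than in the mesenchyme gate, with 904, 815, 98.3, 55.8 and 456 CPM in erythroid-gated cells. Ldhb and Hif1a went the other way, with 7.16 CPM for Ldhb in the erythroid and 60.8 CPM in the mesenchyme gate, and 33.5 CPM for Hif1a in the erythroid and 83.6 CPM in the mesenchyme gate. Against all other WT-labelled cells, Slc2a1, Slc2a3, Slc16a1, Hk2, Pfkfb3, Ndrg1, Vegfa, P4ha1 and P4ha2 were also called lower in the erythroid gate. The 21 erythroid-gated TKO-labelled cells had 1036 CPM (901 to 1186) for Ldha and 997 CPM (864 to 1144) for Aldoa, both above the 642 CPM and 397 CPM of their whole library. Among TKO-labelled kinds with at least 50 cells, the pluripotent gate was highest for Ldha, with 902 CPM (871 to 933), and for Aldoa, with 528 CPM (504 to 552).

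Pdk1 and Egln3 were high in the endothelial gate of both libraries. Pdk1 had 117 CPM (87.8 to 152) in 38 endothelial-gated TKO-labelled cells and 83.8 CPM (68.7 to 101) in 162 endothelial-gated WT-labelled cells, against 10.2 CPM in the whole TKO-labelled and 18.1 CPM in the whole WT-labelled library. Egln3 had 25.4 CPM (13.1 to 44.4) in endothelial-gated TKO-labelled and 32.1 CPM (23.0 to 43.6) in endothelial-gated WT-labelled cells, against 3.79 CPM in the whole TKO-labelled and 6.21 CPM in the whole WT-labelled library. The intervals of both libraries overlapped for each gene, while over all cells both were called lower in the TKO-labelled library. Of 16 genes with 50 UMIs in this gate, none was called higher and 1, Ddit4, lower, against 12.2% and 12.9% of all genes. Egln1 was highest in the cardiomyocyte gate among TKO-labelled kinds with at least 50 cells, with 25.2 CPM (17.3 to 35.4), and Vegfa in the definitive endoderm gate, with 14.8 CPM (12.6 to 17.4).

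Set against all other cells of its own library, each gate had its own pattern, and a gene counts here where its ratio to those cells, with the prior count, passes 1.5-fold and it has 50 UMIs. By the plain ratio 1 more gene was lower in the definitive endoderm, cardiomyocyte and lateral mesoderm gates of the TKO-labelled and the erythroid and endothelial gates of the WT-labelled library. Of 33 such genes in the TKO-labelled library, the definitive endoderm gate had 4 higher, Slc2a1, Slc2a3, Slc16a1 and Vegfa, and 7 lower, against 10.3% and 11.2% of all genes. The pluripotent gate had 9 higher, including both hexokinases, Slc16a3 and Bnip3, and 5 lower, against 10.3% and 21.5%. The cardiomyocyte gate had 6 higher and 7 lower, against 11.5% and 19.1%, the lateral mesoderm gate 3 higher and 11 lower, against 9.81% and 16.3%, and the head mesoderm gate 1 higher and 7 lower, against 5.29% and 11.4%. Slc2a1, Slc2a3 and Slc16a1 were lower in each of these 4 other gates than in the cells around them. Of 34 genes in the WT-labelled library, the erythroid gate had 19 higher and 11 lower, against 11.4% and 48.6%, and the mesenchyme gate 7 higher and 17 lower, against 23.7% and 12.2%. The endothelial gate had 4 higher, Gpi1, Pdk1, Egln1 and Egln3, and 15 lower, against 15.4% and 26.3%, and the lateral mesoderm gate 3 higher and 10 lower, against 5.25% and 14.5%.

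P4ha2, P4ha1, Ndrg1 and Pfkp were high in mesenchyme-gated WT-labelled cells, a kind with 11 cells in the TKO-labelled library. P4ha2 had 40.2 CPM (37.8 to 42.8) in the mesenchyme gate and 2.30 CPM (1.05 to 4.37) in the erythroid gate of the WT-labelled library. Along the count of mesenchyme markers, P4ha2 stood at 3.54 CPM (1.70 to 6.50) in WT-labelled cells with no such marker and at 48.9 CPM (43.1 to 55.3) in those with 5 or more. TKO-labelled cells with no such marker had 3.71 CPM (2.67 to 5.02), so in cells without mesenchyme markers the libraries did not differ beyond counting error for P4ha2. The WT-labelled level of P4ha2 there rested on 10 UMIs. Those WT-labelled cells include cells of the erythroid gate, whose part in the level was not tested. Ndrg1 did differ there, with 3.18 CPM (2.23 to 4.40) in TKO-labelled and 14.5 CPM (10.4 to 19.7) in WT-labelled cells. P4ha1 in the same cells had 22.2 CPM (19.5 to 25.1) in TKO-labelled and 33.2 CPM (26.9 to 40.7) in WT-labelled cells, and Bnip3 25.1 CPM (22.3 to 28.2) in TKO-labelled and 92.6 CPM (81.8 to 105) in WT-labelled cells. Bnip3 thus ran against P4ha2, being highest in WT-labelled cells without mesenchyme markers, the cells that include the erythroid gate.

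**Figure D4:**
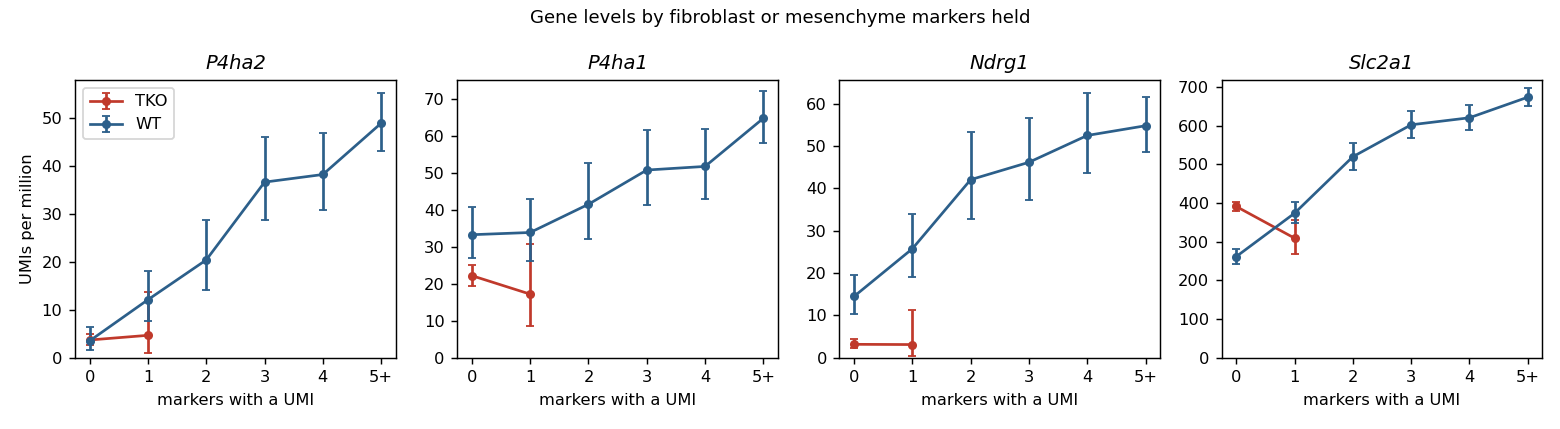
Levels in CPM of P4ha2, P4ha1, Ndrg1 and Slc2a1 in cells thinned to 4000 UMIs, by the number of mesenchyme markers with a UMI, for TKO-labelled (red) and WT-labelled (blue) cells, with bars for exact 95% counting intervals. TKO-labelled cells are drawn only at no marker and at exactly 1 marker, since the bins with more markers held too few of them. P4ha2 is at 3.71 CPM in TKO-labelled and 3.54 CPM in WT-labelled cells with no marker, while Ndrg1 is at 3.18 CPM in TKO-labelled and 14.5 CPM in WT-labelled cells.

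Lateral mesoderm was the 1 kind with at least 50 cells in both libraries, 180 TKO-labelled and 316 WT-labelled. Within it none of the 21 genes with 50 UMIs was called higher and 10 were called lower, against 13.9% and 8.52% of 6311 genes, and the median log2 ratio was −0.51, against 0.13 over all genes tested. Slc2a1 had 134 CPM (117 to 154) in TKO-labelled and 431 CPM (403 to 461) in WT-labelled cells, a ratio of 0.312 (0.267 to 0.363). Slc2a3 had 34.3 CPM in TKO-labelled and 106 CPM in WT-labelled cells, a ratio of 0.322 (0.234 to 0.436). Both glucose transporters were thus lower here, whereas Slc2a3 was higher over the whole TKO-labelled library. The other 8 genes called lower were Slc16a3, Hk2, Aldoa, Tpi1, Ldha, Bnip3, Ndrg1 and P4ha1, with ratios between 0.194 for Ndrg1 and 0.662 for Ldha. Slc16a1, with 26 UMIs in TKO-labelled and 24 in WT-labelled cells, had a ratio of 1.45 (0.799 to 2.63), and Ldhb one of 1.48 (1.21 to 1.81). Within the gate the mesenchyme markers summed to 36.9 CPM in TKO-labelled and 559 CPM in WT-labelled cells, with 8 of 11 and 11 of 11 detected, and the lateral mesoderm markers to 1021 CPM and 1633 CPM in the same order of libraries. Their part in the result was not tested. When gates were allowed to overlap, 5 of 34 genes were called higher and 12 lower in 771 TKO-labelled and 3518 WT-labelled cells, against 16.6% and 15.6% of all genes, and Slc2a3 and Ldha had log2 ratios of 0.76 and 0.049. Of those cells, 372 TKO-labelled and 496 WT-labelled held just the minimum of 2 of 8 markers. In that overlapping set the mesenchyme markers summed to 55.2 CPM in TKO-labelled and 2390 CPM in WT-labelled cells, and the cardiomyocyte markers to 525 CPM in TKO-labelled and 111 CPM in WT-labelled cells.

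Leaving cells over the mesenchyme, erythroid, endothelial or visceral endoderm minimum out of both libraries, a step added after seeing the data, left 3059 TKO-labelled and 599 WT-labelled cells. Among the 34 genes 4 were then called higher and 11 lower, against 20.1% and 10.6% of 11617 genes. Of the hypoxia-induced genes 5 of 11 stayed lower and none was higher, with a median log2 ratio of −0.54. Ndrg1 had 2.96 CPM in TKO-labelled and 26.0 CPM in WT-labelled cells, a ratio of 0.114 (0.0853 to 0.152), and P4ha2 a ratio of 0.307 (0.221 to 0.429). P4ha1, at 0.690 (0.569 to 0.844), Ero1l, at 0.847 (0.627 to 1.16), Ddit4, at 1.08 (0.924 to 1.28), and Ldhb, at 1.48 (1.33 to 1.64), no longer passed 1.5-fold. Slc16a1 had a ratio of 7.93 (6.55 to 9.70), with 209 CPM in TKO-labelled and 26.3 CPM in WT-labelled cells. The step took out 58 TKO-labelled and 201 WT-labelled cells over the visceral endoderm minimum. Slc16a1 was also high in the visceral endoderm gate of the WT-labelled library, and the part of this removal in the ratio was not tested. In what was left the mesenchyme markers still summed to 19.1 CPM in TKO-labelled and 458 CPM in WT-labelled cells, and the definitive endoderm markers to 2245 CPM in TKO-labelled and 1294 CPM in WT-labelled cells.

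Cells over the definitive endoderm minimum, with other gates allowed, numbered 1197 in the TKO-labelled and 208 in the WT-labelled library. Of 30 genes with 50 UMIs, 4 were called higher and 8 lower, against 24% and 11.5% of all genes. Slc2a1 had 763 CPM in TKO-labelled and 534 CPM in WT-labelled cells, a ratio of 1.43 (1.34 to 1.53), and Ldhb a ratio of 3.79 (2.86 to 5.14). Ndrg1 was again lower, with 4.13 CPM in TKO-labelled and 28.4 CPM in WT-labelled cells, a ratio of 0.145 (0.0987 to 0.214), and P4ha1 had a ratio of 0.399 (0.322 to 0.497). This is the set in which the visceral endoderm markers differ as given above, and their part in the ratios was not tested. With overlap allowed, the head mesoderm minimum held 1837 TKO-labelled and 812 WT-labelled cells, and 6 of 33 genes were called higher and 13 lower, against 18.6% and 14.2%. Of these 13, 7 were hypoxia-induced. In that set the mesenchyme markers summed to 26.3 CPM in TKO-labelled and 1647 CPM in WT-labelled cells, and the lateral mesoderm markers to 201 CPM in TKO-labelled and 1297 CPM in WT-labelled cells, and their part was not tested. The visceral endoderm minimum held 58 TKO-labelled and 201 WT-labelled cells, and 3 of 21 genes were called higher and 3 lower, against 20.4% and 7.25%.

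**Figure D5:**
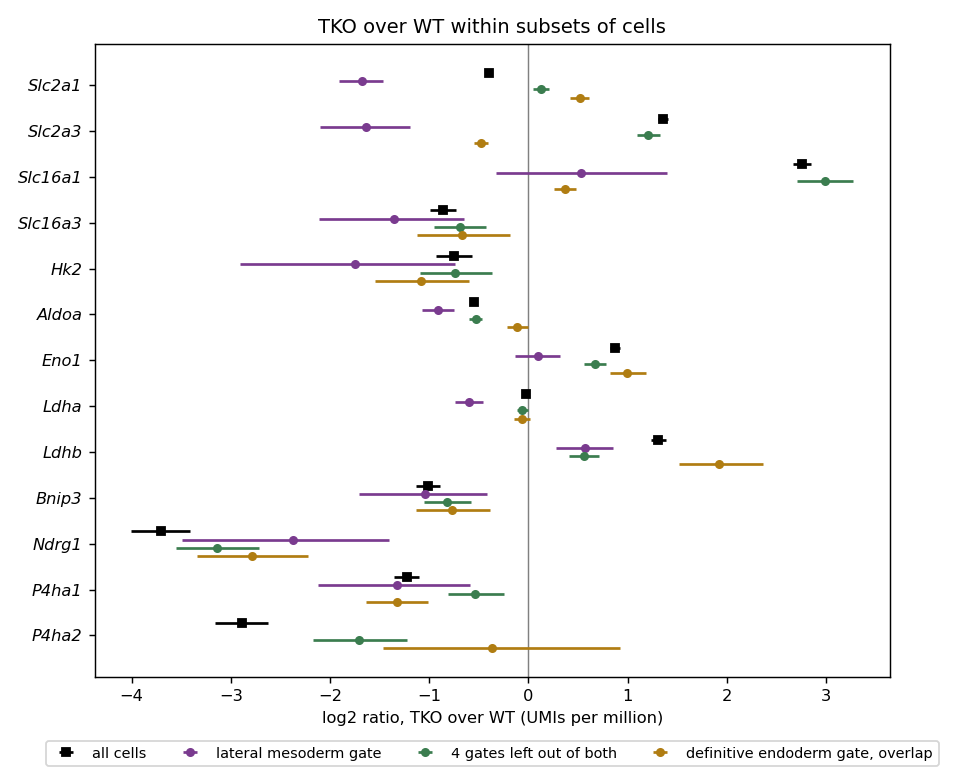
TKO over WT ratios of 13 genes on a log2 axis in all cells, in lateral mesoderm-gated cells, in cells left after 4 gates were taken out of both libraries, and in definitive endoderm-gated cells with overlap allowed, with bars for exact 95% counting intervals and no point for genes under 50 UMIs. Ndrg1 lies left of 0 in each set, at 0.0768, 0.194, 0.114 and 0.145, while Slc2a1 lies at 0.312 in lateral mesoderm-gated and at 1.43 in definitive endoderm-gated cells.

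Cells of 1 library also differed in their UMIs of hypoxia-induced genes, and the part of counting error in this was not tested. After thinning to 4000 UMIs, cells were ranked within each library by their summed UMIs of Bnip3, Ndrg1, Egln3, Vegfa, P4ha1 and Ddit4, and the other 28 genes were read in the top 10% against cells with none of these UMIs. In the TKO-labelled library 301 cells were set against 2042, and 4 of 27 genes with at least 20 UMIs were called higher and none lower, against 7.58% and 5.79% of all genes, with a median log2 ratio of 0.36. For every ranking count, the shares of all genes cover only genes with at least 50 UMIs in the compared cells. The genes read needed only 20 UMIs, so counts and shares are at unlike minimums, and scarce genes pass 1.5-fold more easily by counting error. In the WT-labelled library 402 cells were set against 2106, and 12 of 27 genes were called higher and none lower, against 4.05% and 5.79%, with a median of 0.57. By the plain ratio 10 passed 1.5-fold, since Hk1, with an interval of 0.887 to 2.43, and Egln1, at 1.49 (0.843 to 2.50), were called only with the prior count. The ranking is a range and not a kind of cell: 735 TKO-labelled cells held the 1 UMI at the cut, and 450 WT-labelled cells the 2 UMIs there, with ties broken at random. In the WT-labelled library the top cells had 2.99 times the Slc16a3 (2.41 to 3.70), 1.79 times the Ldha (1.69 to 1.90) and 1.77 times the Aldoa (1.67 to 1.88) of the cells at 0. In the TKO-labelled library Ldha was at 772 CPM in top cells and 576 CPM in cells at 0, a ratio of 1.34 (1.25 to 1.44), and Slc16a3 had a ratio of 1.54 (1.04 to 2.22). The genes called higher in the TKO-labelled library were Slc2a1, Slc16a3, P4ha2 and, on 4 UMIs in top cells, Pfkp, whose interval of 0.391 to 4.89 spans 1, so no abundant glycolytic enzyme was among them. Without Vegfa and Ddit4 in the ranking 2 genes were called higher there. Whether the libraries differ in this was not tested. The erythroid markers summed to 562 CPM in top and 222 CPM in the WT-labelled cells at 0, with a median of 0 UMIs per cell in both. In the TKO-labelled library the definitive endoderm markers summed to 2723 CPM in top cells and 2003 CPM in cells at 0, the visceral endoderm markers to 401 CPM in top cells and 213 CPM in cells at 0, and the pluripotent markers to 528 CPM in top cells and 306 CPM in cells at 0. The proliferation genes summed to 536 CPM in top TKO-labelled cells and 829 CPM in those at 0. The part of these genes in the ratios was not tested. Within mesenchyme-gated WT-labelled cells 5 of 27 genes were called higher and 1 lower, against 3.66% and 4.17%, with Ldha at 1.34 (1.22 to 1.48) and P4ha2 at 1.98 (1.51 to 2.59).

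The same ranking within single gates gave mixed counts. In 38 against 164 erythroid-gated WT-labelled cells 14 of 19 genes were called higher and 1 lower, against 7.22% and 8.56%, with Ldha at 2.15 (1.91 to 2.41), Aldoa at 1.77 (1.56 to 1.99) and Slc16a3 at 3.57 (1.99 to 6.35). Erythroid markers in these sets summed to 2638 CPM in top cells and 2149 CPM in the cells at 0. Definitive endoderm-gated TKO-labelled cells had 4 of 20 genes called higher and 1 lower, against 9.25% and 7.3%, with Slc2a1 at 1.54 (1.38 to 1.70). Head mesoderm-gated TKO-labelled cells had 4 of 20 genes higher and none lower, against 9.07% and 8.14%. Pluripotent-gated TKO-labelled cells had none of 16 higher and 3 lower, against 7.16% and 11.3%. Lateral mesoderm-gated WT-labelled cells, 25 against 142, had 4 of 14 higher and 1 lower, against 9.11% and 8.11%, with Ldha at 2.04 (1.62 to 2.54).

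Further genes of the pathway came from fixed lists, and their counts are past 1.5-fold among those with 50 UMIs, beside the 20.5% higher and 15.6% lower of all genes. Of 7 other HIF pathway genes, 1 was higher and 2 lower. Epas1, which codes for HIF2A, a subunit known for its role in endothelial cells, had 3.94 CPM in TKO-labelled and 31.0 CPM in WT-labelled cells, a ratio of 0.127 (0.105 to 0.152), and Arnt, the shared partner subunit, a ratio of 0.619 (0.548 to 0.699). Arnt2, its neuronal relative, had 96 UMIs in the TKO-labelled and 36 in the WT-labelled library. Of 17 other hypoxia-induced genes 3 were higher and 6 lower, among them Pfkfb4 at 0.320 (0.260 to 0.391), Ankrd37 at 0.360 (0.296 to 0.437) and Stc2, a secreted glycoprotein gene, at 4.14 (3.11 to 5.57). Their median log2 ratio was −0.19, less low than that of the 11 genes above. Of 8 other glycolytic isoforms 3 were higher and 3 lower, and Pfkfb4 is on this list too and counts as lower in both.

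Branches off glycolysis were counted beside the same 20.5% higher and 15.6% lower of all genes, and their lists are short. Of 7 pentose phosphate genes 1 was higher, G6pdx, the entry enzyme of that branch, at 1.61 (1.45 to 1.79), and none was lower. Of 11 genes of the mitochondrial pyruvate carrier and of pyruvate dehydrogenase with its kinases and phosphatases, none was higher and 2 were lower. Mpc1, a subunit of the carrier, had 13.4 CPM in TKO-labelled and 27.9 CPM in WT-labelled cells, a ratio of 0.481 (0.430 to 0.538). The other was the phosphatase gene Pdp2, at 0.652 (0.499 to 0.849). Pck2, the mitochondrial carboxykinase, was the 1 lower gene of 3 in gluconeogenesis, at 0.539 (0.481 to 0.604). Of 9 genes of the integrated stress response none was higher and 4 were lower, with Trib3 at 0.226 (0.176 to 0.287) and Chac1 at 0.373 (0.272 to 0.505), and the list summed to 338 CPM in the TKO-labelled and 454 CPM in the WT-labelled library. Of 9 dissociation and immediate early genes 1 was higher and 2 lower, and of 9 proliferation genes none was higher and 1, Cdk1, was lower. Atf3 is on both the stress response and the immediate early list and counts as lower in each. The part of stress and cell cycle genes in the results above was not tested.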

How the data were processed

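Of 8 samples, 1 TKO-labelled and 1 WT-labelled single-cell library were analysed, grouped by genotype and day in the labels. Per the labels and the whole-number values, the authors deposited unnormalized counts of genes by cells, read here as UMIs. The submitters' processing notes name Seurat 3 and mm10 without their role. The sources used here give no aligner, counting tool or strand setting, so overlapping and antisense genes cannot be told apart. The TKO-labelled table names 3224 barcodes but holds 3223 values per row, and was read by position. In 116 row names a suffix differed between the tables, and rows were matched by position, with a correlation of log2 totals of 0.97 across genes, which are not replicates. The headers share 21 barcode sequences, and whether these are the same cells was not tested.

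Cells with over 15% mitochondrial UMIs were removed, 26 TKO-labelled and 3 WT-labelled. Scrublet in scanpy 1.11.5 marked 1 TKO-labelled and 3 WT-labelled cells, too few for the caller to have worked, so doublets remain. Counts were summed per library or gate, and ratios have exact Clopper-Pearson intervals of the binomial share (scipy 1.17.1). Log2 ratios used a prior count of 0.5. Since each group is 1 library, no edgeR test was run, and edgeR 4.0.16 and DESeq2 1.42.0 gave scaling factors only. The calculations were tested on simulated data. Gates use lists of 8 to 14 markers. All 34 genes are named, and from each pathway list up to 3 genes at either end of the ratio among those with 20 UMIs. The genes and lists were chosen with earlier results of these data known. The counts of markers per cell, the overlapping gates and the exclusion of 4 gates were chosen after seeing the data. Other scalings, thinning, removal of the 5% of cells with most UMIs, other gates and a 2-fold threshold were tried as alternatives.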

Additional observations from a re-analysis of the deposited data

Results flagged for a closer look

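Slc2a1 had ratios on either side of 1 in 2 sets of cells under the same comparison, and only the lower one passed 1.5-fold. In the lateral mesoderm gate the TKO over WT ratio was 0.312 (0.267 to 0.363), with 134 CPM in 180 TKO-labelled and 431 CPM in 316 WT-labelled cells. Among cells over the definitive endoderm minimum, with other gates allowed, it was 1.43 (1.34 to 1.53), with 763 CPM in 1197 TKO-labelled and 534 CPM in 208 WT-labelled cells, a set in which the median log2 ratio of all genes was 0.22. Each group is 1 library, and the difference between the kinds was not tested. Visceral endoderm markers summed to 576 CPM in the TKO-labelled and 14935 CPM in the WT-labelled cells of the endoderm set, and mesenchyme markers to 36.9 CPM in the TKO-labelled and 559 CPM in the WT-labelled cells of the lateral mesoderm gate.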

How the results depend on the processing

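At 2-fold in place of 1.5-fold, 3 of the 34 genes were higher and 7 lower, including 4 hypoxia-induced genes and 3 glycolytic enzymes among the lower ones, against 10.2% of all genes in either direction. Under DESeq2's size factors the median log2 ratio of the glycolytic enzymes was −0.24, against −0.10 by library totals. Without cells of the 4 gates, an alternative chosen after seeing the data, the median of the hypoxia-induced genes was −0.54, against −0.75 over all cells. In the lateral mesoderm gate the number of genes called higher was 1 of 26 with 1 marker more, 3 of 29 when gating thinned cells and 5 of 34 with overlapping gates. As reported it was none of 21, and those called lower numbered 10 to 15 over these settings. Among the alternatives the shares of all genes were computed only for overlapping gates, 16.6% higher and 15.6% lower, so the other counts have no share beside them. With overlapping gates, Slc2a3 and Ldha turned to log2 ratios of 0.76 and 0.049. Genes called higher in the top-ranked TKO-labelled cells numbered 9 with thinning to 6000 UMIs and 2 with ranking without Vegfa and Ddit4, against 4, and in the top 20% of WT-labelled cells 6, against 12 in the top 10%. The number of genes that could be called may differ between these rankings, and the shares of all genes were not computed for them. The causes were not tested. The other 68 alternative values of counts and medians stayed close to those reported. With 1 UMI as the minimum, 27.5% of all genes were higher and 22.3% lower. No paired analysis was possible because each group is 1 library. Scarce genes, such as Pfkfb3, Aldoc and Eno2, are limited by their few UMIs.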
